A study of Mus musculus with 6 samples.

Results

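The genes described are transcription factors linked to the subsets of invariant natural killer T (iNKT) cells, read at stage 0, before subset commitment. The paper does not define a subset by Rora or Maf. They are Zbtb16, Gata3, Tbx21, Rora and Maf, chosen by symbol as 5 of the 48397 genes in the count table. The study asked how the strength of T cell receptor (TCR) signaling shapes iNKT development, and the RNA-Seq compared BALB/c mice with SKG mice. BALB/c mice were wild type at Zap70, the kinase next to the TCR, and SKG mice carried a hypomorphic Zap70 mutation on the BALB/c background. Mice of both genotypes were 8 to 10 weeks old. Each genotype had 3 libraries, each from about 1000 sorted cells out of the pooled thymi of 3 mice, so a replicate is a pool and differences between single mice are not seen. Cells were sorted as tetramer+ and by CD24, CD69, CD44, CD4 and CD8 as stage 0. The labels name an amplification kit with 18 cycles of preamplification, the paper's methods name another kit, and which was used could not be settled.

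Zbtb16 encodes PLZF, the zinc finger factor that directs the innate-like program of iNKT cells. Gata3 encodes the zinc finger factor of early T cell development and type 2 cytokine genes, and it is high in iNKT2 cells. Tbx21 encodes T-bet, the factor of iNKT1 cells and of Ifng. Rora encodes RORα, an orphan nuclear receptor used by IL-17-producing T cells and innate lymphoid cells, and Maf encodes c-Maf, a bZIP factor used by IL-17- and IL-4-producing T cells. NFAT and Egr factors act downstream of the TCR, and Egr2 acts on Zbtb16.

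The promoters of Gata3, Rora and Tbx21 are shown because NFAT and other factors downstream of the TCR act at such regions, and because these 3 of the 5 genes had an entry. The sequences are the 250 bases before the gene's start in RefSeq, read 5′ to 3′ on the gene's strand. They come from RefSeq on GRCm38.p6, the reference assembly of C57BL/6J and not of BALB/c. Zbtb16 and Maf are named only. The windows of Rora and Tbx21 abut the start of the gene as annotated by GENCODE, whereas the Gata3 window lies inside the span that GENCODE gives the gene, which reaches to 9890034. Capitals mark the core of NFAT sites, GGAAA or its reverse complement TTTCC.
Gata3, chr2:9878601-9878850, minus strand: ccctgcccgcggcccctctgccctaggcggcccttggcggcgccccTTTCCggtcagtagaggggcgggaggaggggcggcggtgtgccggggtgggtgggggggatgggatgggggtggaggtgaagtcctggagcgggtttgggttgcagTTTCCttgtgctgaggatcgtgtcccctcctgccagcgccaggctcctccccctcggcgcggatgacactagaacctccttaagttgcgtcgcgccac
Rora, chr9:68653536-68653785, plus strand: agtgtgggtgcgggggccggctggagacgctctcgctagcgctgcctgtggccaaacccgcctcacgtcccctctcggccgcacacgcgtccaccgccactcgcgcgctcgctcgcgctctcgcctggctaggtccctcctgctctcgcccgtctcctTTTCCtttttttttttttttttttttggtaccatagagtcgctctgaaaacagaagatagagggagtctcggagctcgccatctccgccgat
Tbx21, chr11:97115332-97115581, minus strand: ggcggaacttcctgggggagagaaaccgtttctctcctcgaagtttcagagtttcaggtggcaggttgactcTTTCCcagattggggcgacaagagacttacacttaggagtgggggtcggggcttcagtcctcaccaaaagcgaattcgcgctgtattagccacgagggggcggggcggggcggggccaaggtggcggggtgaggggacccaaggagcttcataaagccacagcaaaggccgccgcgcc
The Gata3 window held 2 NFAT cores, at positions -204 to -200 and -98 to -94 counted back from the start. The Rora window held 1, at -92 to -88, and the Tbx21 window held 1, at -178 to -174. The E box CANNTG occurred once, as CAGGTG in the Tbx21 window at -196 to -191, and the Runx letters TGTGGT and the Egr letters GCGTGGGCG or GCGGGGGCG occurred in none of the 3. Both strands were searched, and no match overlapped another motif. Of 32817 promoter windows of the same length, 55.6% held the NFAT core, 66.2% an E box, 14% the Runx letters and 3.06% the Egr letters, so an NFAT core is an ordinary feature of such windows. GC content was 70.0% in the Gata3 window, 61.2% in that of Rora and 60.8% in that of Tbx21. Gata3 and Rora have other annotated starts, and counts per gene cannot tell their transcripts apart.

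Reads on genes ranged from 37176544 to 43115544 per library, and genes with at least 10 reads from 10835 to 14791. The libraries did not separate by genotype: correlations of log2 CPM (counts scaled to library size by TMM) were 0.76 to 0.861 within a genotype and 0.734 to 0.895 between. T cell marker genes summed to 3850 to 4980 CPM in each library. Zap70, whose mutation need not alter its RNA, was at 447 CPM in BALB/c and 355 in SKG. Among the gate's genes, the sort marker Cd69 averaged 352 CPM in BALB/c and 193 in SKG. Its libraries were at 311, 390 and 354 CPM in BALB/c, against 152, 178 and 249 in SKG, and did not overlap. Its adjusted p was 0.686 in edgeR's quasi-likelihood test. Cd24a was at 7.29 to 52.3 CPM in BALB/c and 31.8 to 90.5 in SKG, which overlapped. Of 9 marker lists of cell types and the gate, 8 had summed levels that overlapped between the genotypes. The exception was the stage 0 gate, at 1600 to 2180 CPM in BALB/c and 965 to 1310 in SKG. That list includes Egr2, which was not a sort marker and made up most of each sum. Egr2 was 1542 of 2182 CPM in BALB/c replicate 1 and 953 of 1313 CPM in SKG replicate 2. This sum therefore does not show whether the sort markers together differed. Erythroid markers reached 54.1 CPM in BALB/c replicate 1 and at most 0.861 in the other libraries.

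Of the 5 factors, Gata3 and Zbtb16 were abundant in all 6 libraries, Rora was low and detected almost entirely in BALB/c, and Maf and Tbx21 were at or near 0. By level per kb of exonic sequence, in CPM per kb, the order was Gata3, Zbtb16, Rora, Maf and Tbx21. Gata3 lay between 94.8 and 169 CPM per kb and Zbtb16 between 15.7 and 33.7, so these ranges did not meet. Rora lay between 0 and 1.43, below Zbtb16 in each library. Maf lay between 0 and 0.0187, and Tbx21 was at 0, and these last 3 did not keep their order in each library. Maf lay above Rora in SKG replicate 2, where Rora had 0 reads, and all 3 genes had 0 reads in SKG replicate 3. Among genes tested with a known length, Gata3 ranked at percentiles 95.4 to 98.5 and Zbtb16 at 69.3 to 84.2, whereas Rora reached at most 26.3.

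**Figure D1:**
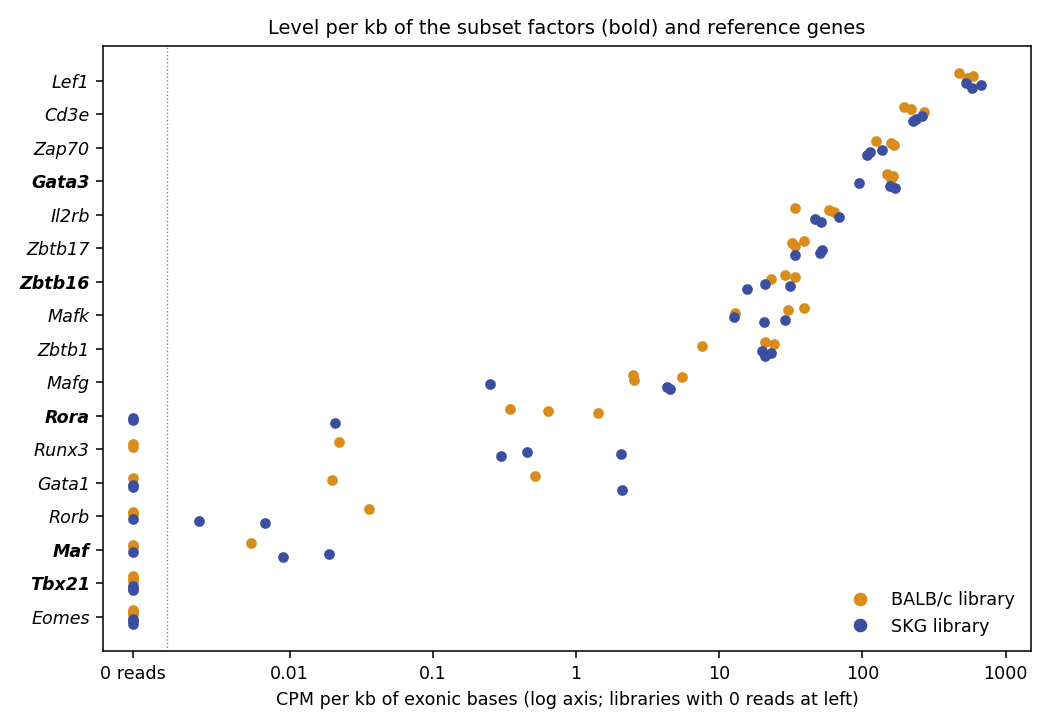
Level of the 5 factors (bold) and of related and reference genes in CPM per kb of exonic sequence, on a log axis, with 1 point per library colored by genotype and libraries with 0 reads at the left. Gata3 (94.8 to 169) and Zbtb16 (15.7 to 33.7) lie far above Rora, and Tbx21 has no reads in any library.

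Between the genotypes, raw counts were compared by edgeR's quasi-likelihood test with Benjamini-Hochberg adjustment, and a call needed an FDR below 0.1 together with a change of at least 1.5-fold. None of 12312 genes tested was called, so the background was 0%, and none of the 3 factors that passed the filter on low counts (Zbtb16, Gata3 and Rora) was called. Limma-voom also called 0 genes, and DESeq2 called 370 without shrinkage of fold changes and 231 with it. At an unadjusted p under 0.05, 2.38% of all genes were higher in BALB/c and 3.07% were higher in SKG. Of the 3 factors tested, 1 (Rora) was on the BALB/c side and 0 on the SKG side. The groups did not overlap for 7.12% of genes with BALB/c above SKG and for 6.77% with SKG above BALB/c. Rora was again the 1 factor of the first kind, and there were 0 of the second. A two-sided exact permutation test on 3 against 3 libraries cannot give a p under 0.1.

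**Figure D2:**
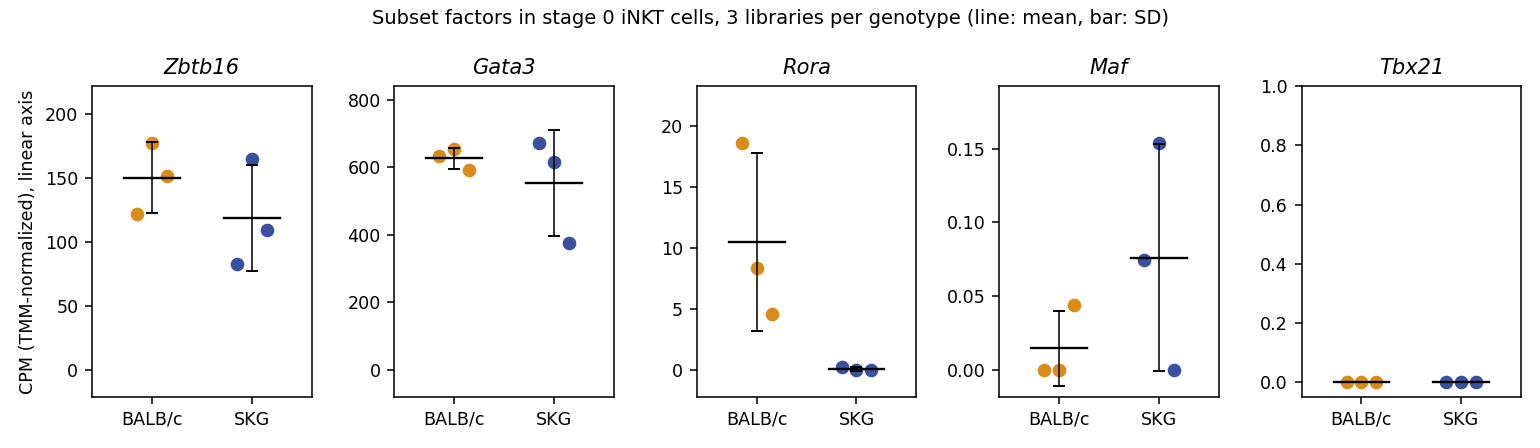
CPM of Zbtb16, Gata3, Rora, Maf and Tbx21 in the 3 BALB/c and 3 SKG libraries (points), with the mean and SD of each genotype, each panel on its own linear axis. The genotypes overlap for Zbtb16, Gata3 and Maf, Rora is higher in each BALB/c library, and Tbx21 is at 0.

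Zbtb16 (ENSMUSG00000066687.5) lies at chr9:48654297-48836222 on the minus strand of GRCm38, with 2 annotated transcripts and 5283 exonic bases. It had 5041, 6612 and 6882 reads in BALB/c (replicates 1, 2 and 3 in this order, here and for each gene), against 3358, 6420 and 3972 in SKG. In CPM these were 122, 178 and 152 in BALB/c, against 83.1, 165 and 110 in SKG. SKG replicate 2 lay above BALB/c replicates 1 and 3, and the groups overlapped. The means were 151 ± 27.97 CPM (SD, n = 3) and 119 ± 41.6 CPM (SD, n = 3). The log2 fold change, SKG over BALB/c, was -0.34 (SE 0.30, 95% interval -1.05 to 0.37), with an adjusted p of 0.991 in edgeR's quasi-likelihood test and an exact permutation p of 0.3. The interval spans SKG levels from 0.484 to 1.30 times those of BALB/c, so a fall to about that lower bound is within the error. In bulk RNA, fewer PLZF-expressing cells in a pool and less Zbtb16 RNA per cell cannot be told apart.

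The value for Zbtb16 moved with single libraries. Without SKG replicate 2 it was -0.64 and without SKG replicate 1 it was -0.14, both log2 fold changes and both short of the threshold. The biological coefficient of variation fitted for Zbtb16 was 28.8%, against 30.6% for genes of like abundance. The fit draws the first value toward the second, so their closeness is partly set by the method.

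Gata3 (ENSMUSG00000015619.10) lies at chr2:9857078-9890034 on the minus strand, with 6 transcripts and 3978 exonic bases. Reads were 26182, 24305 and 26892 in BALB/c, against 27203, 23984 and 13671 in SKG. In CPM these were 633, 654 and 594 in BALB/c, against 673, 615 and 377 in SKG. The highest and the lowest values were both in SKG, so the groups overlapped, and SKG replicate 3 stood below the other libraries. The means were 627 ± 30.3 CPM (SD, n = 3) and 555 ± 157 CPM (SD, n = 3), with coefficients of variation of 4.84% and 28.3%. The log2 fold change was -0.17 (SE 0.23, 95% interval -0.72 to 0.37), with an adjusted p of 0.991 in edgeR's quasi-likelihood test and an exact permutation p of 0.8. Without SKG replicate 3 its sign turned, to 0.045. Antisense and same-strand genes overlap Gata3, of which the antisense Gm13256 shares 155 exonic bases (3.9%) and had at most 49 reads. Since reads were counted without strand, those of Gata3 and of Gm13256 cannot be told apart in the shared bases.

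Gata3 per kb was 4.57 to 10.8 times Zbtb16 per kb in single libraries. The ratio was 6.90, 4.88 and 5.19 in BALB/c, against 10.8, 4.96 and 4.57 in SKG. SKG replicate 1 had the highest ratio and SKG replicate 3 the lowest, so the balance of these genes overlapped between the genotypes. Over the 6 libraries, the Pearson correlation of log2 CPM was 0.18 between Zbtb16 and Gata3, 0.27 between Zbtb16 and Rora and 0.52 between Gata3 and Rora. These are descriptions over libraries that share depth and preparation.

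Rora (ENSMUSG00000032238.17) lies at chr9:68653786-69388246 on the plus strand, with 6 transcripts and 13071 exonic bases. Reads were 770, 310 and 206 in BALB/c, against 11, 0 and 0 in SKG. In CPM these were 18.6, 8.34 and 4.55 in BALB/c, against 0.272, 0 and 0 in SKG. Each BALB/c library was above each SKG library, and the BALB/c libraries differed among themselves, with replicate 1 the highest. The means were 10.5 ± 7.28 CPM (SD, n = 3) and 0.0908 ± 0.157 CPM (SD, n = 3). The log2 fold change was -6.80 (SE 2.21, 95% interval -12.08 to -1.51), with an unadjusted p of 0.0192 and an adjusted p of 0.830 in edgeR's quasi-likelihood test. The exact permutation p was 0.1, the smallest this design allows. The study named Rora from these libraries, so its difference is not independent evidence.

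The call for Rora depended on the tool. DESeq2 called it without shrinkage (log2 fold change -6.82, adjusted p = 0.00359) and with shrinkage (-2.32, adjusted p = 0.0914). With shrinkage DESeq2 called 0.815% of genes as higher in BALB/c (113 of 13862). Limma-voom gave -7.88 with an adjusted p of 0.576. With SKG libraries at 0, the size of the fold change rests on the prior count used in the fit: it was -6.66 at a prior count of 0.5 and -5.62 at 5. Without SKG replicate 1, which held all 11 SKG reads, the fit gave -11.71 against libraries at 0, and without BALB/c replicate 1 it gave -6.10. The fitted coefficient of variation was 147% for Rora and 142% for genes of like abundance, toward which the fit draws it.

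The pattern of Rora was set against those of other genes by thresholds taken from its own reads. Of all genes in the count table, 3 had at least 206 reads in each BALB/c library and at most 11 in each SKG library: Rora, Ska3 and AI506816. With the genotypes exchanged there were 0. Ska3, a gene of the kinetochore, had 719, 420 and 290 reads in BALB/c, against 0, 2 and 1 in SKG. AI506816 had 855, 534 and 1199 reads in BALB/c, against 3, 5 and 2 in SKG. Of 437 genes with 206 to 770 reads in each BALB/c library, 3 (0.686%) had 0 reads in at least 2 SKG libraries. In the other direction it was 1 of 451 genes (0.222%). These counts describe where Rora stands among genes and were chosen after its values were seen. By that choice Rora itself is in each BALB/c count. The exchanged counts have no such member, so the directions are not compared on equal terms.

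**Figure D3:**
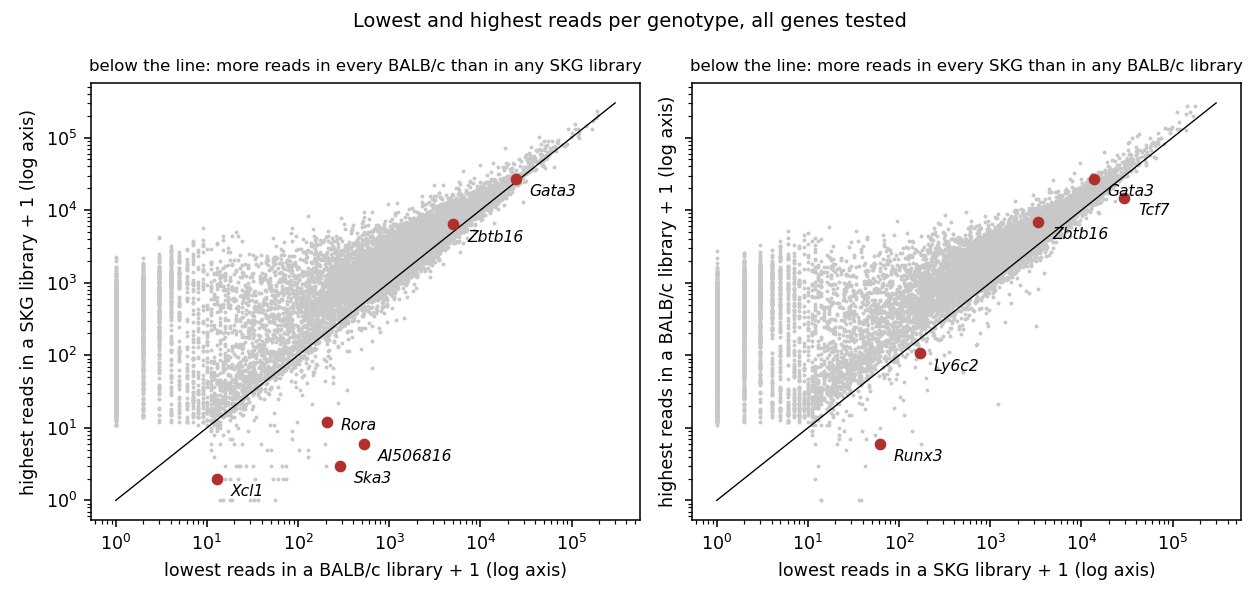
Each tested gene (grey) by its lowest reads in a library of one genotype and its highest in one of the other, on log axes with 1 read added, for BALB/c against SKG (left) and the reverse (right), with named genes in red. In the left panel Rora, with at least 206 reads in each BALB/c library and at most 11 in SKG, lies in a sparse corner that it shares with Ska3 and AI506816.

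Values of other genes that bear on the cells in the pools are given beside Rora, and none of these genes passed the test. Nkg7, a granule membrane gene of cytotoxic cells, had 362, 428 and 673 reads in BALB/c, against 51, 0 and 112 in SKG. Cd44, which the sort selected against, had 284, 536 and 184 reads in BALB/c, against 23, 4 and 181 in SKG, and its groups overlapped through SKG replicate 3, at 4.99 CPM against 4.06 in BALB/c replicate 3. Summed markers of innate lymphoid or gamma-delta T cells, which express Rora, were at 7.82 to 21.4 CPM in BALB/c and 12.7 to 20.7 in SKG. Of these 6 markers, 3 had at most 3 reads in each library. Trdc made up most of each sum, 7.77 of 7.82 CPM in BALB/c replicate 2, so the sums rest mainly on a single gene. The part of other cells in the Rora difference was not tested. An antisense gene, Gm15511, shares 82 exonic bases (0.627%) with Rora and had 8 reads in BALB/c replicate 3 and 0 elsewhere.

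Maf (ENSMUSG00000055435.6) lies at chr8:115682942-115707794 on the minus strand, with 2 transcripts and 8241 exonic bases. It had 0, 0 and 2 reads in BALB/c, against 3, 6 and 0 in SKG. The sums were 2 and 9 reads, and the groups overlapped (exact permutation p = 0.4). Maf did not pass the filter on low counts, and no fold change is given. Maf RNA was thus at the edge of detection in both genotypes. The antisense gene Gm15655, which shares 440 exonic bases (5.34%) with Maf, had 0 reads in all 6 libraries.

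Tbx21 (ENSMUSG00000001444.2) lies at chr11:97098071-97115331 on the minus strand, with 1 transcript and 2488 exonic bases. It had 0 reads in each of the 6 libraries. At these depths a count of 0 allows up to 3 reads, or 0.0662 to 0.0827 CPM, in a library. Set against that limit per kb, the level of Zbtb16 was at least 527-fold higher and that of Gata3 at least 2850-fold higher than Tbx21 in each library. Such limits cover counting error only, since PCR copies are not separate molecules and a rare RNA can be lost from about 1000 cells before sequencing.

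**Figure D4:**
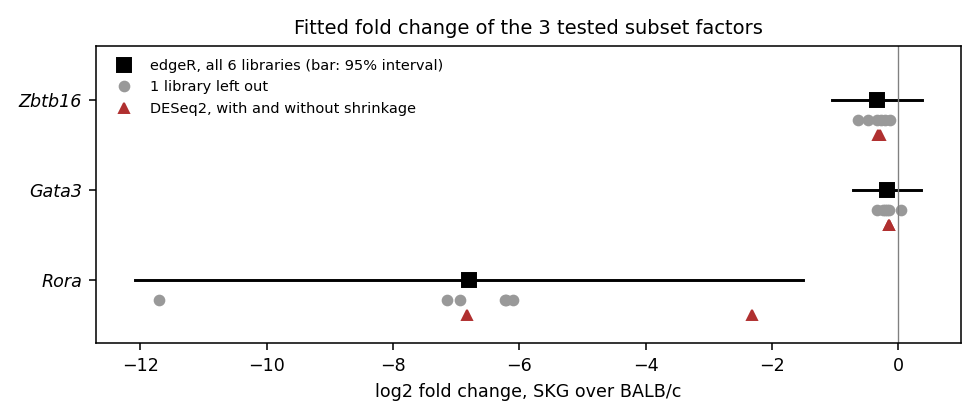
Log2 fold change, SKG over BALB/c, of the 3 factors tested, from edgeR on all libraries (square, with the 95% interval), with 1 library left out (grey) and from DESeq2 with and without shrinkage (triangles). The intervals of Zbtb16 (-1.05 to 0.37) and Gata3 (-0.72 to 0.37) span 0, and that of Rora (-12.08 to -1.51) lies below 0 at an adjusted p of 0.830.

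By likeness of log2 CPM over the 6 libraries (Pearson r, n = 6), the genes nearest to Zbtb16 were Gfer (0.996), Swt1 (0.991) and Hyal1 (0.982). Those nearest to Gata3 were Fitm2 (0.996), Gm38394 (0.995) and Eml2 (0.995), which all shared its low value in SKG replicate 3. Fitm2, for example, had 579, 668 and 397 reads in BALB/c, against 721, 326 and 1 in SKG. Those nearest to Rora were A530040E14Rik (0.997), Zfp661 (0.995) and Frmpd1 (0.992). Zfp661, a zinc finger gene, had 631, 300 and 274 reads in BALB/c, against 21, 0 and 0 in SKG. These are the highest of 12312 values over 6 libraries each and say nothing of a shared function.

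Among relatives of the factors in the same DNA-binding families, 9 of 14 genes were tested, and 0 had an unadjusted p under 0.05 or groups that did not overlap. Without SKG replicate 1 there was 1 at such a p. Of all genes, 2.38% were higher in BALB/c and 3.07% higher in SKG by that p. The groups did not overlap for 7.12% and 6.77% of all genes, so counts of 0 in so short a list are near these shares. The median log2 fold change of the relatives was 0.28, against -0.02 over all genes. Zbtb17, a POZ and zinc finger relative of PLZF that partners Myc, had the lowest p of this list (0.135) at a log2 fold change of 0.37 (SE 0.22). Mafk, Bcl6 and Zbtb1 had log2 fold changes of -0.40 (SE 0.48), 0.28 (SE 0.34) and 0.28 (SE 0.40). Gata2 and Eomes had 0 reads in each library. Gata1 had 207 reads in SKG replicate 1, 57 in BALB/c replicate 3 and at most 2 in the others.

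Of 18 genes associated with iNKT1 cells, 10 were tested and 4 had at most 3 reads in each library, among them Cxcr3 and Gzmb. At an unadjusted p under 0.05, 1 was higher in BALB/c and 2 were higher in SKG, against 2.38% and 3.07% of all genes. The groups did not overlap for 3 and 2 genes, against 7.12% and 6.77% of all genes. The 3 genes at an unadjusted p under 0.05 became 1 without SKG replicate 2 or with the library number as a block, 0 with the filter at 10 CPM, and 5 with DESeq2 without shrinkage. The median log2 fold change was -0.93. The study labelled Xcl1, Fcer1g, Ly6c2 and Runx3 from these libraries, so they are not independent evidence. Xcl1, a chemokine of NK and T cells, had 45, 70 and 12 reads in BALB/c, against 1, 0 and 1 in SKG (adjusted p = 0.679, edgeR's quasi-likelihood test). Fcer1g, an adaptor of activating receptors, had 517, 385 and 441 reads in BALB/c, against 90, 52 and 175 in SKG (adjusted p = 0.952 in the edgeR fit). Both were higher in each BALB/c library, as was Nkg7. Runx3, a factor of cytotoxic lymphocytes, had 0, 0 and 5 reads in BALB/c, against 60, 403 and 83 in SKG (adjusted p = 0.830, edgeR). Ly6c2, a surface protein, had 40, 75 and 105 reads in BALB/c, against 168, 447 and 547 in SKG (adjusted p = 0.871, edgeR). These lay the other way, so the genes of this list did not share a direction. Ifng, the cytokine gene that T-bet acts on, had 312 reads in BALB/c replicate 1 and 0 in the other 5 libraries. Il2rb, the receptor chain for IL-15, was at 223 ± 67.8 and 239 ± 50.6 CPM (SD, n = 3 each).

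Of 14 genes associated with iNKT2 cells, 12 were tested and 1, Slamf6, was higher in SKG at an unadjusted p under 0.05 and without overlap. The shares of all genes were 3.07% by that p and 6.77% without overlap. The count of 1 by p fell to 0 without BALB/c replicate 2, without SKG replicate 3, with scaling by library size alone and with either replicate block. None was on the BALB/c side, and the median log2 fold change was 0.19. Slamf6, a SLAM receptor that signals during iNKT selection, was at 2621 ± 222 CPM in BALB/c and 3316 ± 337 CPM in SKG (SD, n = 3 each), a log2 fold change of 0.34 (SE 0.13) with an adjusted p of 0.869 in edgeR's test. Il17rb, the IL-25 receptor chain, had 1710, 2036 and 3081 reads in BALB/c, against 4808, 2454 and 1639 in SKG. The chemokine receptors Ccr4 and Ccr7 had log2 fold changes of 0.88 (SE 0.48) and 0.57 (SE 0.47). Il4, the cytokine of iNKT2 cells, had 174, 254 and 325 reads in BALB/c, against 67, 136 and 374 in SKG. Il13 had at most 15 reads in a library. Il4 was thus present at a low level in both genotypes, and its groups overlapped.

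Of 13 genes associated with iNKT17 cells, 1, Tmem176b, was tested, its unadjusted p was 0.195, and 7 had at most 3 reads in each library, among them Il17a, Il23r and Ccr6. Tmem176b, a membrane protein, had a log2 fold change of 4.26 (SE 2.95), with 0, 0 and 33 reads in BALB/c, against 86, 0 and 438 in SKG. The count of 0 genes at an unadjusted p under 0.05 became 1 without BALB/c replicate 2, without BALB/c replicate 3 and without the filter on low counts. Several genes of this list were high in a single BALB/c library. Il17re and Il1r1 had 879 and 224 reads in BALB/c replicate 1 and at most 10 and 3 elsewhere. Sdc1 and Blk had 177 and 77 reads in BALB/c replicate 3 and at most 4 and 2 elsewhere. Outside this list, Hopx had 170 reads in SKG replicate 3 and at most 1 elsewhere, so such cases were not confined to BALB/c. BALB/c replicate 1 was also the library with the most Rora reads and with the highest sums of double-positive thymocyte (436 CPM) and B cell (94.7 CPM) markers, whose part in the result was not tested. Rora had 310 and 206 reads in BALB/c replicates 2 and 3, where the part of other cells was not tested either.

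Inputs to PLZF and the subset factors, which are factors and receptors that act on these genes or on iNKT selection, made a list of 25 genes, all of them tested. At an unadjusted p under 0.05, 2 were higher in BALB/c and 5 were higher in SKG, against 2.38% and 3.07% of all genes. The same counts were found for groups that did not overlap, against 7.12% and 6.77% of all genes. The 7 genes at an unadjusted p under 0.05 became 4 without BALB/c replicate 1 and 4 with the library number as a block. The median log2 fold change was 0.20. Egr1 and Egr2, zinc finger factors induced by the TCR, were the 2 higher in BALB/c. Egr1 was at 1780 ± 207 and 940 ± 49.6 CPM (SD, n = 3 each), with a log2 fold change of -0.92 (SE 0.13) and an adjusted p of 0.447 in edgeR's test. Egr2 was at 1347 ± 230 and 775 ± 248 CPM (SD, n = 3 each), with a log2 fold change of -0.80 (SE 0.27) and an adjusted p of 0.834 in edgeR's test. Zbtb16, on which Egr2 acts, overlapped between the same libraries.

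The 5 genes on the SKG side were Tcf7, Nfatc1, Tcf3, Notch1 and Slamf6. Tcf7, the HMG-box factor TCF-1, was at 239 ± 104 CPM in BALB/c and 828 ± 84.7 CPM in SKG (SD, n = 3 each), a log2 fold change of 1.79 (SE 0.31) with an adjusted p of 0.617 in edgeR's test. Nfatc1, a calcium-dependent factor, was at 1164 ± 11.5 and 2105 ± 452 CPM (SD, n = 3 each; log2 fold change 0.85, SE 0.17). Tcf3, which encodes the E proteins E12 and E47, was at 390 ± 10.2 and 574 ± 76.1 CPM (SD, n = 3 each; log2 fold change 0.56, SE 0.14). Notch1 was at 48.9 ± 17.7 and 87.2 ± 1.395 CPM (SD, n = 3 each; log2 fold change 0.84, SE 0.34). Runx1, a Runt factor needed early in iNKT development, had a log2 fold change of -0.06 (SE 0.25). The study named Egr1, Egr2, Tcf7 and Nfatc1 from these libraries, and Slamf6 stands in this list and in that of iNKT2 cells.

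**Figure D5:**
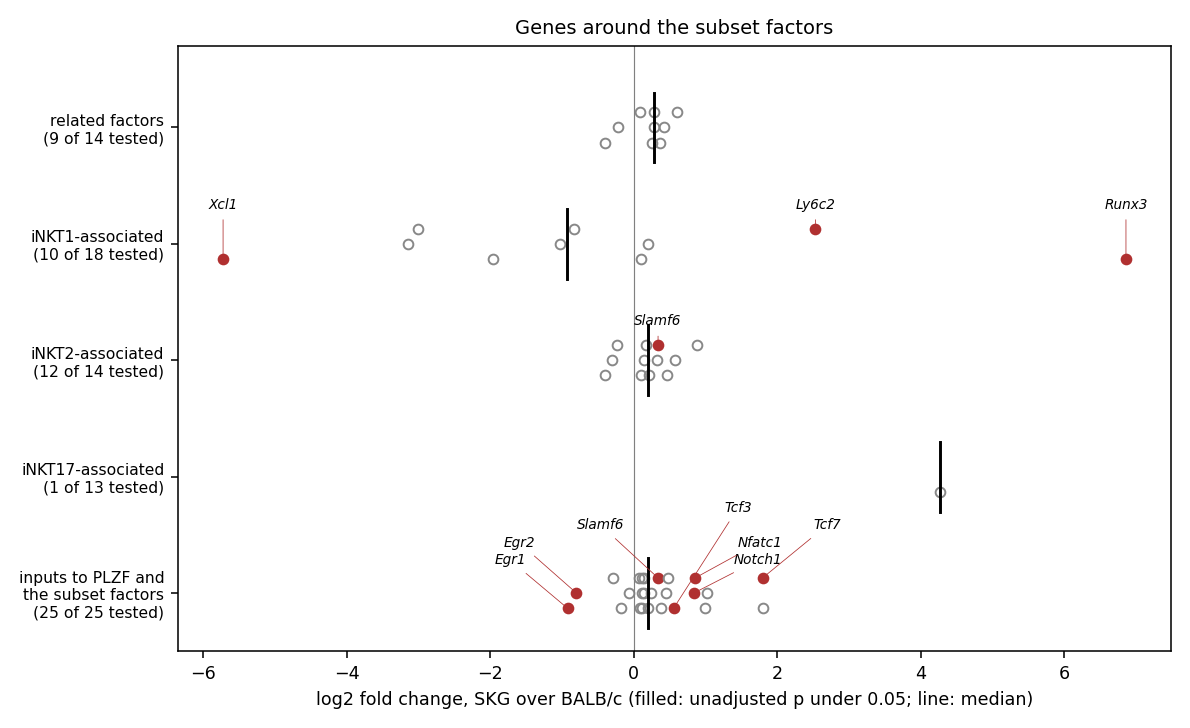
Log2 fold change, SKG over BALB/c, of each tested gene of the 5 lists (points), with the list's median (line) and genes at an unadjusted p under 0.05 filled and named. The related factors lie near 0, and the inputs hold Egr1 and Egr2 below 0 and 5 genes, Tcf7 the farthest, above it.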

How the data were processed

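RNA of stage 0 iNKT cells was sequenced from 3 BALB/c and 3 SKG pools. The authors aligned 50-nt reads to GRCm38 with HISAT2 2.1.0 and counted unstranded exonic reads (Ensembl 85, minimum mapping quality 10). The deposited counts per gene are raw and unfiltered. A deposited table of the authors' DESeq2 comparison (fold changes, p-values) was not used. Versions are from the submitters' processing notes.

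The fit used edgeR 4.0.16 under R 4.3.3: filterByExpr by genotype, TMM, and the quasi-likelihood F test without covariates, adjusted by Benjamini-Hochberg over 12312 genes (thresholds of the paper: FDR 0.1, fold change 1.5). The fit was tested on simulated data. log2 CPM used a prior count of 2. Lengths and positions came from GENCODE M21.

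Alternatives were DESeq2 1.42.0, limma 3.58.1 (voom), other size factors, filters, lengths and prior counts, each library left out, and replicate blocks. Libraries sharing a number in the titles had residual correlations of -0.145 to -0.00962, and those sharing a library number had -0.0384 and 0.00289. They were not paired. Since residuals were centred within each genotype of 3 libraries, these correlations cannot exclude a shared batch.

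The factors and lists were chosen with earlier results of these data known. Genes named are the factors, the 4 tested genes of each list with the lowest p, list genes the study names, the 3 genes most like each factor, and markers beside a result. Others were chosen after their values were seen. Some genes of these lists are not reported here.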

Additional observations from a re-analysis of the deposited data

How the results depend on the processing

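The directions of Zbtb16 and Rora were the same under each alternative run, and that of Gata3 turned without SKG replicate 3 (0.045). Calls over all genes rose from 0 to 2 without a filter on low counts, 1 with at least 10 CPM in 3 libraries, and, with DESeq2, 370 (177 higher in SKG, 193 in BALB/c) without and 231 (118 and 113) with shrinkage. Rora was called by DESeq2 alone (-6.82 and -2.32), and the filter at 10 CPM removed it. The cause was not tested. With single libraries left out, 0 genes were called, and log2 fold changes ranged from -0.64 to -0.14 for Zbtb16, -0.34 to 0.045 for Gata3 and -11.71 to -6.10 for Rora. Mean CPM in SKG minus BALB/c ranged from 0.0229 to 0.1001 for Maf and stayed at 0 for Tbx21.

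With the replicate number of the titles as a block, the log2 fold changes were -0.38 for Zbtb16, -0.22 for Gata3 and -8.60 for Rora, and with the library number as a block -0.13, -0.42 and -12.03. Library numbers 1 and 4 occurred in a single library each. With the library number as a block, the genotype difference therefore rests on the libraries numbered 2 and 3 alone, here and in the counts of the lists. Either block called 0 genes, and 0 of 3 libraries correlated best with its own number. Of 81 other values, counts in lists and levels per kb, 66 stayed within their limits and 15 moved. Maf and Tbx21 were too low for a test.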
